A study of Arabidopsis thaliana with 12 samples.

Results

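SBPASE (AT3G55800), PRK (AT1G32060) and LrgB (AT1G32080) are 3 nuclear genes of the carbon metabolism of the Arabidopsis chloroplast. Each was represented by the array probe whose annotation names that gene alone. They are 3 of 689 loci with such a probe, on an array of 3439 probes. Each had 1 such probe, no member was on a probe annotated to several genes, and none was listed at 0, at the floor or at the top of the scale in any sample. Total RNA was measured in wild-type Arabidopsis thaliana of the ecotype Columbia 0. 6 samples came from plants kept for their last 6 d at high CO2, which the labels give as 1% by volume. 6 samples came from plants at normal CO2, labelled 0 d. The labels name no organ, plant age or pooling. The CO2 level and 6 d of further growth cannot be told apart in this design.

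In the Calvin-Benson cycle, the enzyme Rubisco adds CO2 to ribulose bisphosphate, and a chain of reactions then turns part of the product back into that acceptor. SBPASE encodes sedoheptulose-bisphosphatase, which commits carbon to regeneration of the acceptor, and PRK encodes phosphoribulokinase, which makes the acceptor in the last step. Both enzymes are switched on in the light through thioredoxins. When Rubisco takes O2 in place of CO2, the chloroplast produces phosphoglycolate, and photorespiration salvages its carbon through the peroxisome and the mitochondrion. LrgB, better known as PLGG1, is the carrier of the chloroplast envelope that exports glycolate into this route and brings glycerate back. High CO2 is known to lower the rate of photorespiration.

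Every sample correlated best with its neighbour in number (1 with 2, 3 with 4, 5 with 6) across probes, at a Pearson r of 0.924 to 0.982, and these neighbours are called pairs below. Differences by pair below match pairs of like number, which the labels do not link across groups. The labels also do not say whether samples are of separate plants. Any p-value over 12 samples thus rests on sample-to-sample spread that could be technical. Samples 5 and 6 stood apart in both groups. High-CO2 samples 5 and 6 correlated at 0.846 to 0.873 with high-CO2 samples 1 to 4 and at 0.906 to 0.921 with normal-CO2 samples 1 to 4. Normal-CO2 samples 5 and 6 correlated at 0.741 to 0.793 with high-CO2 samples 1 to 4 and at 0.808 to 0.814 with normal-CO2 samples 1 to 4. Their r with high-CO2 samples 5 and 6 was 0.814 to 0.817. Between the groups, samples 1 to 4 correlated at 0.821 to 0.86, above the r of normal-CO2 samples 5 and 6 with their own group. The differences and ratios tested below are therefore given over 12 samples, over pair means, and without samples 5 and 6. In extracts of whole material, fewer cells of a type and less RNA per cell cannot be told apart.

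Of the 3 genes, SBPASE fell at high CO2, and PRK and LrgB did not pass the test over 12 samples. Over these samples 12.5% of the 3349 probes tested passed, and 6.96% passed as lower. Where pairs and not samples were taken as the units, SBPASE did not pass either, with a limma adjusted p of 0.407 over pair means and 0.268 with pairs as a random block. Nor did it pass with values as deposited (limma adjusted p = 0.104). The ratio tests below did not show that SBPASE changed unequally to PRK or to LrgB. SBPASE was lower at high CO2 in every pair. PRK and LrgB were lower at high CO2 in samples 1 to 4 and higher at high CO2 in samples 5 and 6, and had a Pearson r of 0.910 with each other across the 12 samples. Intensities below are quantile normalized on a linear scale with no unit, and are not compared between genes, because each probe has its own scale.

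SBPASE had a normalized intensity from 0.334 to 0.582 at high CO2, with a median of 0.497, against 0.632 to 1.08 at normal CO2, with a median of 0.749. The groups did not overlap: the highest high-CO2 sample, number 6, lay below the lowest normal-CO2 sample, number 5. Among all tested probes, 4.75% had all 6 high-CO2 samples below all 6 normal-CO2 samples. SBPASE averaged 0.483 ± 0.0875 in high-CO2 samples and 0.835 ± 0.195 in normal-CO2 samples (SD, n = 6 each). From mean log2 values, high-CO2 samples had 0.581 times the normal-CO2 level (95% interval 0.433 to 0.782). The limma test gave a log2 difference of -0.78 (SE 0.20, adjusted p = 0.0250). The call ended without high-CO2 sample 4, the lowest of its group, where the log2 difference was -0.68 (limma adjusted p = 0.0514). It also ended with values as deposited, where the log2 difference was -0.53 (limma adjusted p = 0.104) and 1.93% of tested probes passed as lower. Without samples 5 and 6 of both groups SBPASE still passed, with a log2 difference of -1.03 (limma adjusted p = 0.00656, or 0.113 over pair means), in a fit where 37.9% of probes passed and 19.8% passed as lower.

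The pair means of SBPASE were 0.480, 0.406 and 0.562 in high-CO2 samples, against 1.08, 0.734 and 0.691 in normal-CO2 samples, in the order of samples 1-2, 3-4 and 5-6. In 9 of 9 combinations of a high-CO2 pair with a normal-CO2 pair, SBPASE was lower at high CO2. That order is shared by 10.1% of tested probes. With values as deposited, with no scaling between samples, SBPASE again had 9 of 9 combinations lower at high CO2, against 4.24% of 3375 tested probes, although single samples then overlapped (0.414 to 0.657 at high CO2, 0.604 to 0.942 at normal CO2). Over pair means the limma fit passed 0 probes, with 408 at an unadjusted p under 0.05. SBPASE had an unadjusted p = 0.0421 there. The random block for pairs, whose correlation was estimated, also passed 0 probes, with 511 at an unadjusted p under 0.05. The difference was widest in samples 1 and 2, where the log2 difference was -1.18. It was -0.88 in samples 3 and 4, and narrowest in samples 5 and 6, at -0.29.

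**Figure D1:**
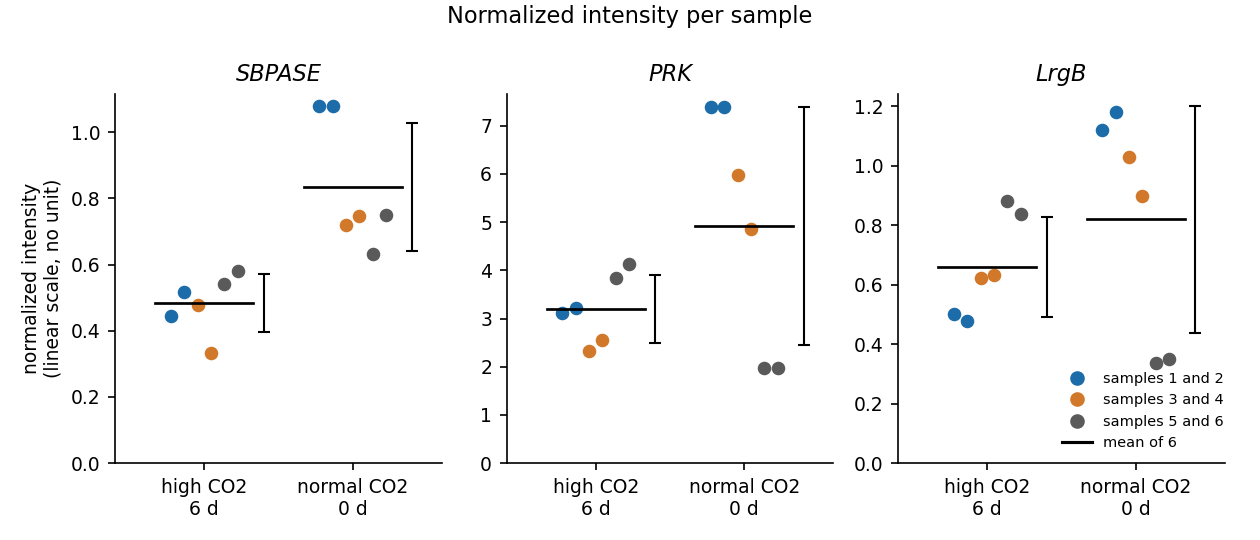
Quantile-normalized intensity (linear scale, no unit) of SBPASE, PRK and LrgB in each of 6 high-CO2 samples (left) and 6 normal-CO2 samples (right). Points are samples coloured by pair, horizontal lines are means and error bars are SD; the SBPASE groups do not overlap, and normal-CO2 samples 5 and 6 are the lowest of all 12 samples in PRK (1.97 to 1.98) and LrgB (0.338 to 0.349).

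PRK had a normalized intensity from 2.32 to 4.14 at high CO2, with a median of 3.17, against 1.97 to 7.38 at normal CO2, with a median of 5.41. The normal-CO2 samples fell into separate levels: samples 1 to 4 lay at 4.85 to 7.38, above every high-CO2 sample, and samples 5 and 6 lay below every high-CO2 sample. PRK averaged 3.20 ± 0.709 in high-CO2 samples and 4.92 ± 2.47 in normal-CO2 samples (SD, n = 6 each). The ratio from mean log2 values, not from these averages, was 0.732 with a 95% interval from 0.424 to 1.26. PRK did not pass (log2 difference -0.45, SE 0.36, limma adjusted p = 0.430, or 0.723 over pair means). The interval holds no change as well as a fall deeper than that of SBPASE.

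The pair means of PRK were 3.17, 2.43 and 3.99 in high-CO2 samples, against 7.38, 5.41 and 1.98 in normal-CO2 samples. Partners were much closer to each other than pairs were: in the normal-CO2 group the widest gap between partners was 1.13, and the pair means spanned 5.40. The log2 difference was -1.22 in samples 1 and 2, -1.15 in samples 3 and 4, and 1.01 in samples 5 and 6, so 6 of 9 combinations of pairs were lower at high CO2. Without samples 5 and 6 of both groups, PRK averaged 2.80 ± 0.436 in high-CO2 samples and 6.39 ± 1.22 in normal-CO2 samples (SD, n = 4 each). It then fell, to 0.440 times the normal-CO2 level (log2 difference -1.18, SE 0.18, limma adjusted p = 0.00233), in the fit where 37.9% of probes passed. In samples 1 to 4, 20.7% of tested probes had every high-CO2 sample below every normal-CO2 sample, and in samples 5 and 6 alone 38.2% had both high-CO2 samples above both normal-CO2 samples. Over the 2 remaining pair means of each group no probe passed, 1059 of 3349 had an unadjusted p under 0.05, and the limma adjusted p of PRK was 0.0901.

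LrgB had a normalized intensity from 0.478 to 0.880 at high CO2, with a median of 0.628, against 0.338 to 1.18 at normal CO2, with a median of 0.964. The arrangement was that of PRK: normal-CO2 samples 1 to 4, at 0.9 to 1.18, lay above every high-CO2 sample, and normal-CO2 samples 5 and 6 lay below every high-CO2 sample. LrgB averaged 0.659 ± 0.168 in high-CO2 samples and 0.819 ± 0.380 in normal-CO2 samples (SD, n = 6 each). The ratio from mean log2 values, not from these averages, was 0.886 with a 95% interval from 0.522 to 1.51. LrgB did not pass (log2 difference -0.17, SE 0.35, limma adjusted p = 0.776, or 0.908 over pair means), and its sign turned with values as deposited (0.03).

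The pair means of LrgB were 0.489, 0.628 and 0.859 in high-CO2 samples, against 1.15, 0.964 and 0.343 in normal-CO2 samples. The log2 difference was -1.23 in samples 1 and 2, -0.61 in samples 3 and 4, and 1.32 in samples 5 and 6. Without samples 5 and 6 of both groups LrgB averaged 0.559 ± 0.0812 in high-CO2 samples and 1.06 ± 0.122 in normal-CO2 samples (SD, n = 4 each). It then fell to 0.527 times the normal-CO2 level (log2 difference -0.92, SE 0.14, limma adjusted p = 0.00245), again in the fit where 37.9% of probes passed. The limma adjusted p over the remaining pair means was 0.101. Leaving out only normal-CO2 samples 5 and 6 also brought both genes past the test, with log2 differences of -1.01 for PRK and -0.71 for LrgB (limma adjusted p = 0.0135 and 0.0448), in a fit where 14.4% of probes passed and 8.63% passed as lower. Leaving out only high-CO2 samples 5 and 6 did not (limma adjusted p = 0.315 for PRK and 0.527 for LrgB), in a fit where 14.0% of probes passed as lower. Normal-CO2 samples 5 and 6 were the lowest of all 12 samples in both genes. Leaving them out had to deepen both falls, so the calls made without them add no support of their own.

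**Figure D2:**
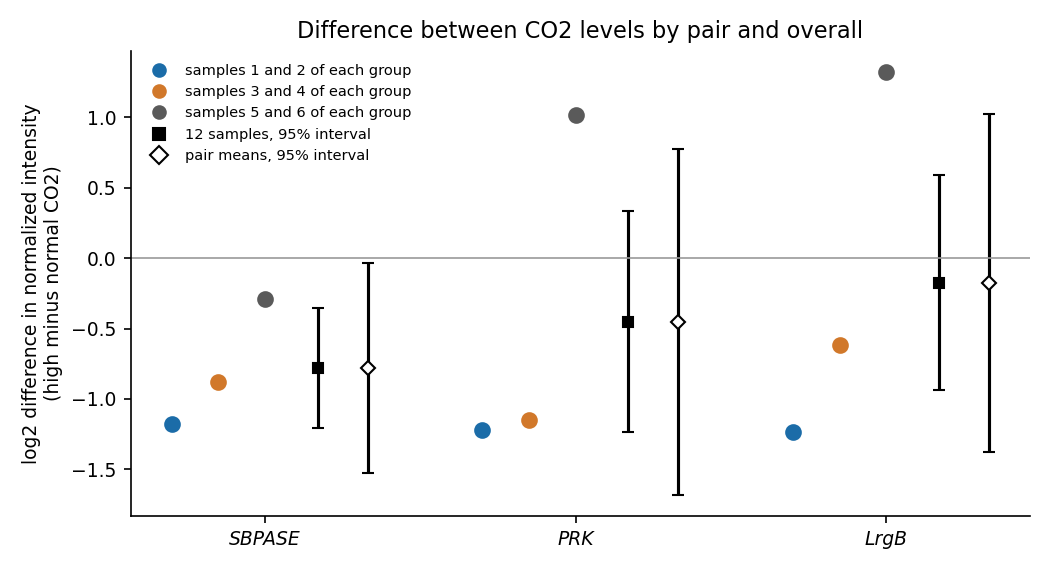
Log2 difference in normalized intensity, high minus normal CO2, for each gene. Circles give the difference between like-numbered pairs, the square the fit over 12 samples and the diamond the fit over pair means, with 95% intervals; all SBPASE circles are below 0, and the circle of samples 5 and 6 is at 1.01 for PRK and 1.32 for LrgB.

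The order seen in PRK and LrgB was not rare on the array. Of the 3349 tested probes, 8.75% were lower at high CO2 in samples 1 to 4 and higher at high CO2 in samples 5 and 6 with no overlap on either side, and 7.70% showed the opposite order. Deposited medians over all probes moved with the same samples. They were 0.340 to 0.390 in high-CO2 samples 1 to 4 and 0.174 to 0.175 in high-CO2 samples 5 and 6, against 0.160 to 0.166 in normal-CO2 samples 1 to 4 and 0.255 to 0.256 in normal-CO2 samples 5 and 6. Their part in the PRK and LrgB values was not tested. With values as deposited, where no further scaling was applied, PRK still had a log2 difference of -1.25, -1.33 and 0.92 in the 3 pairs, and LrgB of -0.73, -0.13 and 0.94. SBPASE had -0.65, -0.12 and -0.81 on that scale, so that samples 5 and 6 gave its widest difference as deposited and its narrowest after quantile normalization.

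Among all tested probes the median log2 difference was -0.02 over 12 samples. The share of probes with a lower value was 11.1% for SBPASE, 25.0% for PRK and 39.3% for LrgB. Without samples 5 and 6 of both groups it was 10.9% for SBPASE, 8.0% for PRK and 13.9% for LrgB. SBPASE thus kept its place among the probes, while PRK and LrgB moved from inside the bulk of the distribution towards its lower end.

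**Figure D3:**
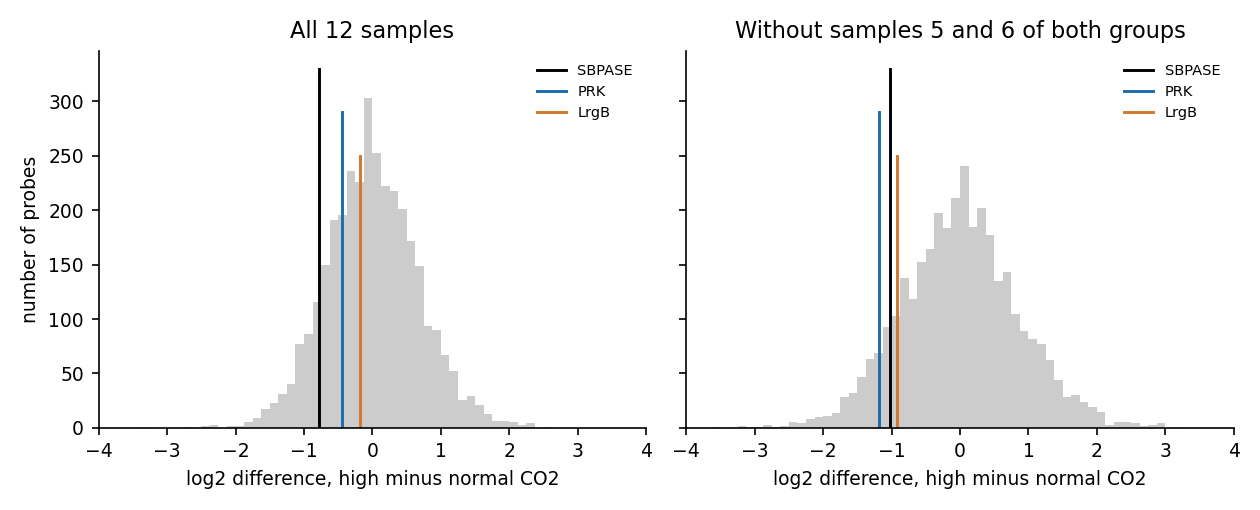
Distribution of log2 differences, high minus normal CO2, over the tested probes (grey bars, number of probes), over 12 samples (left) and without samples 5 and 6 of both groups (right). Vertical lines mark SBPASE, PRK and LrgB, whose heights carry no value; they lie at -0.78, -0.45 and -0.17 on the left and at -1.03, -1.18 and -0.92 on the right.

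Carbon fixation and glycolate transport were compared with each other through the log2 ratio of probe pairs within each sample, which asks whether genes changed unequally. In 12 samples, 0 of 3 ratios passed a two-sided exact permutation test adjusted over the 3. Over pair means, 3 against 3, the smallest exact permutation p is 0.1, so no ratio could pass there. The log2 ratio of PRK to LrgB was 2.29 ± 0.345 in high-CO2 samples and 2.56 ± 0.104 in normal-CO2 samples (SD, n = 6 each), which differed by -0.28 (exact permutation p = 0.0974, adjusted p = 0.146, or 0.6 over pair means). The ratio held close in the normal-CO2 samples, at 2.43 to 2.72, although PRK itself spanned 1.97 to 7.38 there. At high CO2 it ran from 1.90 in sample 3 to 2.75 in sample 2, with pair means of 2.70, 1.95 and 2.22, against 2.68, 2.48 and 2.52 in normal-CO2 samples.

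The call on the PRK to LrgB ratio depended on the scaling. A ratio within a sample does not change when that sample is multiplied by a constant, but quantile normalization bends the scale. With values as deposited, or scaled to a common median, the log2 ratio was 2.15 ± 0.454 in high-CO2 samples and 2.73 ± 0.195 in normal-CO2 samples (SD, n = 6 each). It differed by -0.58 (exact permutation p = 0.00866, adjusted p = 0.0260). The ratio at high CO2 was thus 0.668 times that at normal CO2, although neither gene passed on its own as deposited. The pairs did not share this shift equally. Samples 3 and 4 had log2 ratios of 1.52 and 1.62 in the high-CO2 group, beside 2.74 and 2.79 in the normal-CO2 group. In the same order, samples 1 and 2 had 2.36 and 2.42, beside 2.98 and 2.85. Samples 5 and 6 overlapped between the groups, with 2.35 and 2.60 beside 2.53 and 2.47. The groups overlapped slightly, with high-CO2 samples at 1.52 to 2.60 and normal-CO2 samples at 2.47 to 2.98. Over pair means the difference had an exact permutation p = 0.1, the smallest that 3 against 3 can give, and an adjusted p = 0.3.

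The log2 ratio of SBPASE to PRK was -2.72 ± 0.235 in high-CO2 samples and -2.39 ± 0.688 in normal-CO2 samples (SD, n = 6 each), which differed by -0.33 (exact permutation p = 0.335, adjusted p = 0.335, or 0.9 over pair means). 10 of the 12 samples lay between -3.05 and -2.28, and normal-CO2 samples 5 and 6 stood above them at -1.65 and -1.39. The sign turned with values as deposited (0.03) and without samples 5 and 6 of both groups (0.16, exact permutation p = 0.4, adjusted p = 0.6). The log2 ratio of SBPASE to LrgB was -0.43 ± 0.371 in high-CO2 samples and 0.18 ± 0.664 in normal-CO2 samples (SD, n = 6 each), which differed by -0.61 (exact permutation p = 0.0823, adjusted p = 0.146, or 0.6 over pair means). Normal-CO2 samples 5 and 6 were again the highest, at 0.90 and 1.10. Without samples 5 and 6 of both groups the difference was -0.10 (exact permutation p = 0.714, adjusted p = 0.714). The ratio of PRK to LrgB differed by -0.26 in samples 1 to 4 (exact permutation p = 0.371, adjusted p = 0.6). With 4 samples a group, a single ratio at the smallest exact permutation p, 0.0286, would not pass the adjustment over the 3, so these tests could not show an unequal change in 1 ratio alone. Over the remaining pair means the smallest exact permutation p is 0.333, and none could pass.

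**Figure D4:**
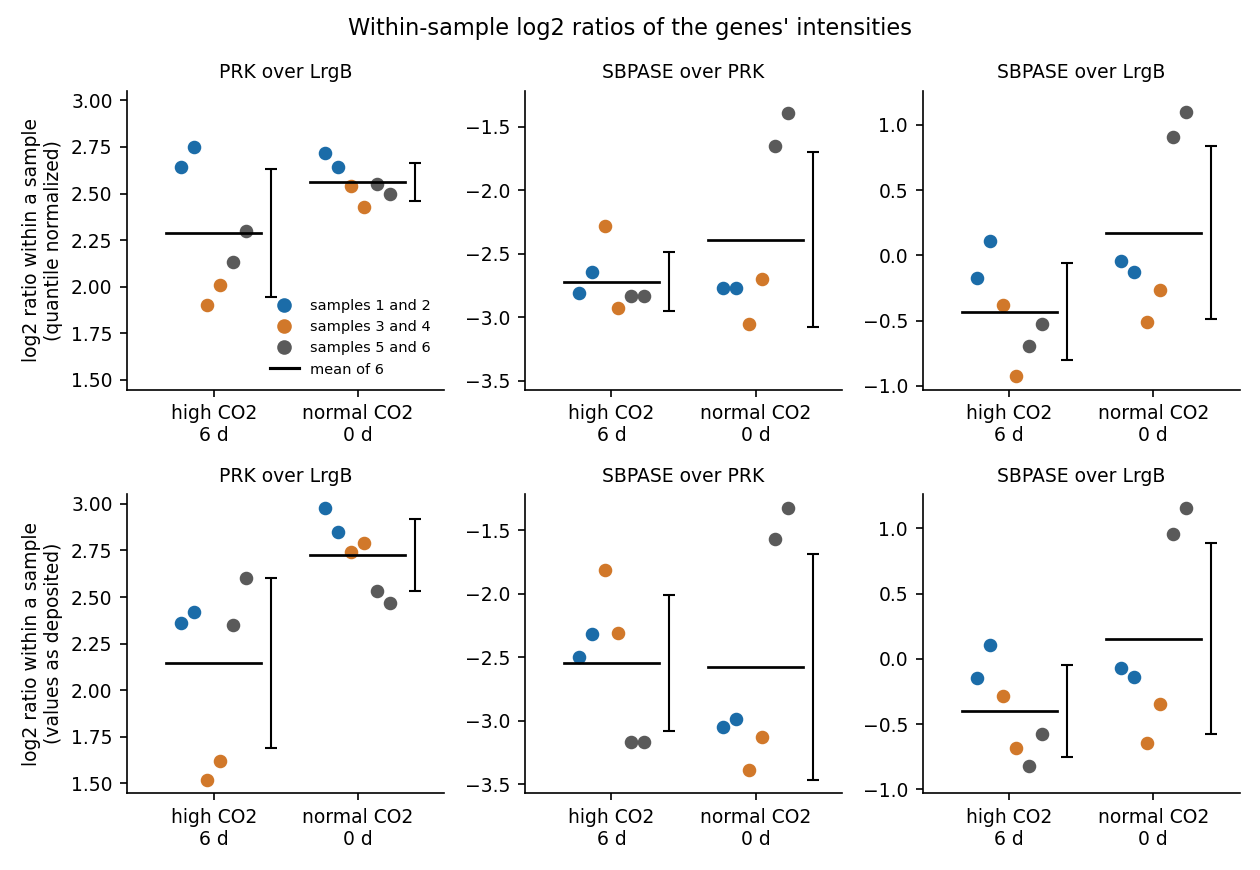
Within-sample log2 ratios of intensities for the 3 gene pairs, quantile normalized (upper row) and as deposited (lower row), in 6 high-CO2 samples (left in each panel) and 6 normal-CO2 samples (right). Points are coloured by pair, lines are means and error bars SD; normal-CO2 samples 5 and 6 are the highest in both ratios with SBPASE, and not in the ratio of PRK to LrgB.

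Correlations across samples are given as a description, since samples come in pairs and share their scaling. Pearson r between PRK and LrgB was 0.910 over 12 samples, 0.505 over the 6 high-CO2 samples and 0.994 over the 6 normal-CO2 samples. It was 0.770 with values as deposited, and 0.882 without samples 5 and 6 of both groups. SBPASE had an r of 0.653 with PRK and 0.447 with LrgB over 12 samples, which were 0.272 and 0.01 with values as deposited and 0.942 and 0.852 without samples 5 and 6 of both groups. Without those samples PRK thus correlated less with LrgB than with SBPASE, and the opposite order over 12 samples rests on samples 5 and 6. PRK and LrgB are also close neighbours on chromosome 1, with 1 gene, AT1G32070, between them in the TAIR10.1 annotation. The other measured genes within 20 genes of both were AT1G32160, with an r of 0.204 with PRK and 0.408 with LrgB, and AT1G32190, with an r of 0.272 with PRK and 0.312 with LrgB. AT1G32220, within 20 genes of LrgB alone, had an r of -0.299 with it. When samples 5 and 6 of both groups were left out, the r of AT1G32160 was -0.888 with PRK and -0.63 with LrgB, that of AT1G32190 was 0.307 and 0.332, and that of AT1G32220 with LrgB was -0.826.

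The 3 single-gene probes most like each member were taken from 448 that stayed above the floor in all 12 samples. For PRK they were AT1G06510 (Pearson r 0.977 over 12 samples), PSBY, a small subunit of photosystem II (0.966), and AT3G13120, a plastid ribosomal protein (0.955), and LrgB ranked 6 in that order. With values as deposited the r of PSBY was 0.958 and that of AT1G06510 only 0.412. For LrgB they were AT4G01310, a plastid ribosomal protein (0.935), AT4G13550 (0.935) and AT1G51080 (0.928), and PRK ranked 10. For SBPASE they were AT2G40980 (0.896), SECE1, a subunit of the thylakoid Sec translocase (0.893), and AT2G29180 (0.878), while PRK ranked 41 and LrgB 99. With values as deposited, r with SBPASE was 0.662 for AT2G40980, 0.86 for SECE1 and 0.621 for AT2G29180. On that scale r with LrgB was 0.842 for AT4G01310, 0.545 for AT4G13550 and 0.889 for AT1G51080. All ranks are over the 12 samples after quantile normalization, and are not given for other settings. SBPASE had a higher r with PRK and with LrgB when the samples that stood apart were left out, as given above.

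Of 24 genes listed for the Calvin-Benson cycle, 2 were measured by a probe of their own, SBPASE and PRK, with 1 lower and 0 higher over 12 samples, against 6.96% of all tested probes lower, and a median log2 difference of -0.62. Over pair means 0 of the 2 were lower. Of 29 genes listed for photorespiration, LrgB alone was measured. The small subunits of Rubisco, glycolate oxidase and the glycine decarboxylase complex were therefore not measured here by a probe of their own. Of 14 listed genes for the thioredoxin systems that activate SBPASE and PRK, 2 were measured and both fell over 12 samples, against 6.96% of all tested probes. Neither passed over pair means, nor with pairs as a random block (limma adjusted p = 0.155 for AT2G04700 and adjusted p = 0.315 for NTRC with an estimated correlation).

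AT2G04700 encodes the catalytic chain of ferredoxin-thioredoxin reductase, which passes electrons from photosynthesis to the thioredoxins. It had a normalized intensity from 0.569 to 0.916 at high CO2, with a median of 0.682, against 1.07 to 1.32 at normal CO2, with a median of 1.26. The groups did not overlap, and 4.75% of tested probes had all 6 high-CO2 samples below all 6 normal-CO2 samples. AT2G04700 was at 0.588 times the normal-CO2 level (95% interval 0.461 to 0.75, log2 difference -0.77, limma adjusted p = 0.0137) and passed also as deposited (-0.63, limma adjusted p = 0.0283) and after median scaling (-1.17, limma adjusted p = 0.0106), where 7.18% of tested probes passed as lower. Its log2 differences in the 3 pairs were -1.12, -0.89 and -0.29 after quantile normalization, beside -1.18, -0.88 and -0.29 for SBPASE. As deposited, SBPASE had -0.65, -0.12 and -0.81, and the pair values of AT2G04700 on that scale are not given here. Over pair means AT2G04700 had a limma adjusted p of 0.407 and an unadjusted p = 0.0334. Without samples 5 and 6 of both groups it passed (-1.01, limma adjusted p = 0.000499), in the fit where 19.8% of probes passed as lower. Over the remaining pair means the limma adjusted p of AT2G04700 was 0.0717.

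NTRC, a thioredoxin reductase fused to a thioredoxin and fed by NADPH, had a normalized intensity from 0.197 to 0.241 at high CO2, against 0.265 to 0.403 at normal CO2. The groups did not overlap here either, an order shared by 4.75% of tested probes. NTRC was at 0.656 times the normal-CO2 level (log2 difference -0.61, limma adjusted p = 0.0230), with -0.73, -0.71 and -0.39 in the 3 pairs. With values as deposited its log2 difference was -0.10 (limma adjusted p = 0.824). It had a limma adjusted p of 0.416 over pair means, and without samples 5 and 6 of both groups it passed (-0.72, limma adjusted p = 0.00398), again beside 19.8% of probes lower, but not over the remaining pair means (limma adjusted p = 0.0954). For AT2G04700 and NTRC, 9 of 9 combinations of pairs were lower at high CO2, as for SBPASE and unlike PRK and LrgB. Among tested probes, 10.1% had that order. Pearson r with SBPASE over 12 samples was 0.830 for AT2G04700 and 0.840 for NTRC, and with LrgB it was 0.459 and 0.433. That order also turned without samples 5 and 6 of both groups, where r with SBPASE was 0.841 for AT2G04700 and 0.864 for NTRC, and with LrgB 0.969 and 0.906.

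**Figure D5:**
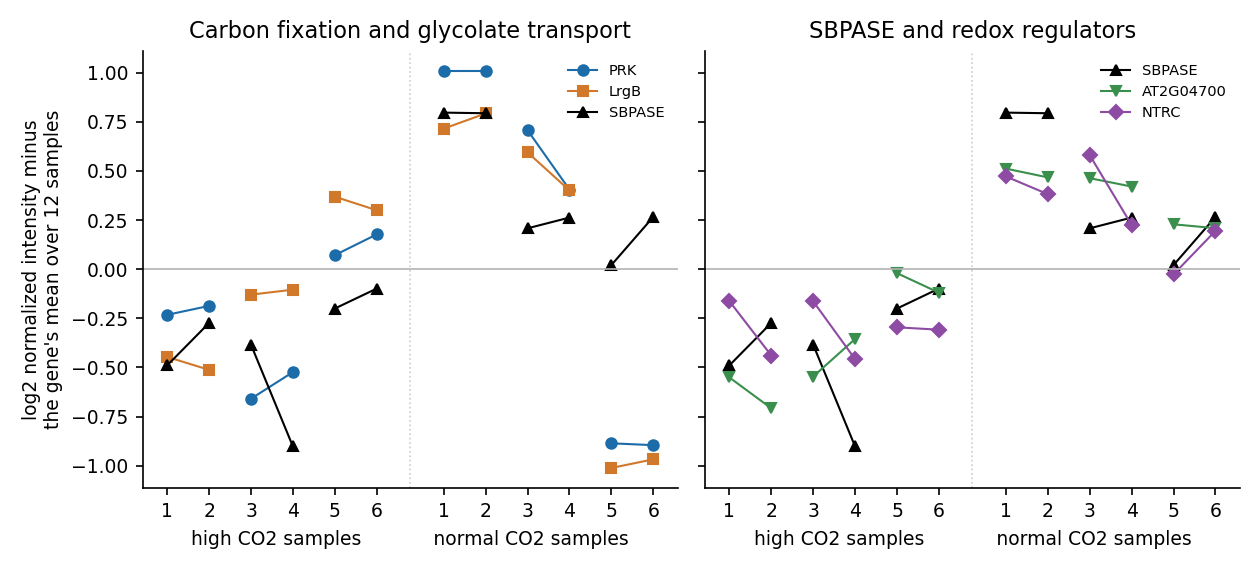
Log2 normalized intensity minus the gene's own mean over 12 samples, for PRK, LrgB and SBPASE (left) and for SBPASE, AT2G04700 and NTRC (right), in samples 1 to 6 at high CO2 and samples 1 to 6 at normal CO2. Lines join the samples of a pair; PRK and LrgB drop together in normal-CO2 samples 5 and 6, while SBPASE, AT2G04700 and NTRC stay higher there than in every high-CO2 sample of the same gene.

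Among 11 further carriers of the plastid envelope listed, 1 was measured. AT5G17630, the translocator that exchanges xylulose 5-phosphate and phosphate, had a normalized intensity from 0.446 to 2.92 at high CO2, with a median of 2.44, against 0.549 to 0.699 at normal CO2, with a median of 0.565. High-CO2 samples 1 to 4 lay at 2.30 to 2.92, above all other samples, and high-CO2 samples 5 and 6 lay below every normal-CO2 sample. AT5G17630 did not pass over 12 samples (log2 difference 1.35, SE 0.48, limma adjusted p = 0.0818, or 0.454 over pair means). It passed as higher without samples 5 and 6 of both groups (2.25, limma adjusted p = 3.61e-05), where 18.2% of probes passed as higher. Without high-CO2 sample 5 alone it also passed (1.67, limma adjusted p = 0.0252), where 264 of 3349 probes passed as higher. The same held without high-CO2 sample 6 alone (1.70, limma adjusted p = 0.0194), where 252 of 3349 did. Samples 5 and 6 were its lowest at high CO2, so leaving out either had to raise the high-CO2 mean. Over the pair means of samples 1 to 4 AT5G17630 did not pass (limma adjusted p = 0.0717). In samples 1 to 4 LrgB had the other sign, with a log2 difference of -0.92. In both carriers samples 5 and 6 gave a difference of the opposite sign, at -0.43 for AT5G17630 and 1.32 for LrgB.

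Of 15 listed genes of starch and sucrose synthesis, 1 was measured. ATSPS4F, a sucrose-phosphate synthase, had a normalized intensity from 1.28 to 1.55 at high CO2, with a median of 1.46, against 1.42 to 2.72 at normal CO2, with a median of 1.88. The groups overlapped, and the gene did not pass (log2 difference -0.42, SE 0.19, limma adjusted p = 0.154, or 0.590 over pair means). It passed as lower after median scaling (-0.92, limma adjusted p = 0.0198), but had a log2 difference of -0.17 (limma adjusted p = 0.376) when samples 5 and 6 of both groups were left out. No gene listed for carbonic anhydrases, nitrogen assimilation beside photorespiration, senescence and carbon starvation, or the root was measured by a probe of its own, so the organ sampled could not be checked by root markers.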

How the data were processed

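The deposited table holds intensities on a linear scale from 0 to a common top value of 100 (rounded). The following is not given in the sources used here: the array type, the background correction, the scaling and what a 0 means. The unit was judged from the values. All columns were used, with groups from the sample titles. Sample medians of the deposited intensities ran from 0.648 to 1.58 times their mean. Quantile normalization and all fits used limma 3.58.1 in R 4.3.3. Zeros were kept at 0, every value under a common floor of 0.0398 was then set to it (12.5% of all values), and fits were made on the log2 scale. Folds come from mean log2 values. A limma model with group as its term was fitted to 3349 probes (90 at the floor in all samples were left out), with Benjamini-Hochberg adjustment at 0.05 over all of them.

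Probes were named through the platform annotation of 2016: 692 had 1 gene, 870 several and 1877 none; 690 of the 692 matched TAIR10.1 genes. Of these, the text names the 3 members, the measured genes of 9 lists (119 loci, 7 measured; 4 lists with none), the 3 probes most like each member, and measured genes within 20 genes of PRK and LrgB. Members, lists and tests were chosen with earlier results of these data known. Within-sample ratios were tested by exact permutation. The number of arrays limits the precision. The fit and the permutation test were tried on simulated data in which all samples were independent. Such data cannot show how either behaves with pairs of like samples. Alternatives covered scaling, floor, filter, pairs (mean or random block, statmod 1.5.0, consensus correlation 0.785), sample number as a block, variance trend, samples 5 and 6, and each sample left out.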

Additional observations from a re-analysis of the deposited data

Results flagged for a closer look

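Of 20 groups of 6 samples examined, for the 3 genes, their 3 ratios and the 4 other measured genes of the lists, 1 held a sample far from the others. Chance flags about 1 in 20 such groups if values are independent, which pairs of like samples are not. For AT5G17630 at normal CO2, sample 6 lay at -0.517 on the log2 scale and the other 5 between -0.865 and -0.766, so its gap to the nearest was 0.716 of the group's range, over Dixon's 95% critical share for 6 samples. No group of SBPASE, PRK, LrgB or their ratios passed that share. The widest shares among these were 0.514 for SBPASE at high CO2 (sample 4) and 0.553 for the ratio of SBPASE to PRK at high CO2 (sample 3).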

How the results depend on the processing

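All alternatives were chosen with earlier results of these data known, and the fits on samples 5 and 6 alone were added after the values were seen here. The causes of the changes below were not tested. The 185 higher and 233 lower probes (44.3% higher) became 326 and 65 as deposited (83.4% higher; all probes shifted by a median of 0.449), 101 and 243 after median scaling (29.4% higher), 608 and 662 without samples 5 and 6, 431 and 469 without those of high CO2 alone, and 0 and 0 in limma over pair means (408 at unadjusted p under 0.05), with a random block for pairs (511) and over pair means without samples 5 and 6 (1059). Leaving out single samples gave 90 to 264 higher and 140 to 316 lower. SBPASE did not pass as deposited (-0.526), over pair means (-0.782) or with the random block for pairs (-0.782). Nor did it pass over pair means without samples 5 and 6 (-1.03), and it ran from -0.856 to -0.68 with single samples left out. Fits on samples 5 and 6 alone hold a single pair per group, so only their log2 differences are given. SBPASE was at -0.293 in them. PRK passed without samples 5 and 6 (-1.18) and without normal-CO2 samples 5 and 6 (-1.01). It was 1.01 in samples 5 and 6 alone, and ran from -0.675 to -0.294 with single samples left out. LrgB passed in the same fits as PRK (-0.924 and -0.713), was 0.0275 as deposited and 1.32 in samples 5 and 6 alone, and ran from -0.394 to -0.0335. AT5G17630 was -0.434 in samples 5 and 6 alone. The ratio of PRK to LrgB passed as deposited and after median scaling (-0.582 in each) and ran from -0.369 to -0.198 with single samples left out. The ratio of SBPASE to PRK turned to 0.0282 with both scalings, to 0.156 without samples 5 and 6 (samples or pair means) and to 0.102 without normal-CO2 samples 5 and 6, and ran from -0.464 to -0.133. That of SBPASE to LrgB ran from -0.746 to -0.422 and passed in no setting. Over pair means 0 members of the Calvin-Benson list and 0 of the redox list were lower. Without samples 5 and 6, 2 Calvin-Benson members and 1 photorespiration member were lower and 1 envelope carrier was higher, where 19.8% of probes were lower and 18.2% higher, and 0 of them passed over pair means of those samples.

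The labels link same-numbered samples of the groups by nothing but the number. Their deviations from group means correlated at -0.0784 to 0.158 across probes. For numbers 3 and 4 the highest r was with their own number (0.124 and 0.158). Whether same-numbered samples share a batch was not tested. With the number as a replicate block, 222 probes were higher and 238 lower in limma, SBPASE still passed (adjusted p = 0.0441), and PRK and LrgB did not (adjusted p = 0.496 and 0.816). No gene had a second probe of its own, so no other probe could be tried.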
